A study of Rattus norvegicus with 6 samples.

Results

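Nuclear receptors are transcription factors that bind small lipid-soluble ligands or, as orphan receptors, act without a known one, and coregulators are the proteins they recruit to switch genes on or off. The transcripts of 44 such genes were followed in left ventricles from 3 rats labelled normal and 3 labelled diabetic. Each ventricle was read on an Affymetrix array of 1 colour. The genes were chosen by symbol. They are those whose symbol begins with the letters of a nuclear receptor (Nr with its subfamily code, Ppar, Rxr, Rar, Thr, Esr, Ror or Vdr) or of a coregulator (Ncoa or Ncor), out of 10411 genes named on the array. Nr1d1, Nr1d2 and the Ppargc1 genes were kept apart. The 44 genes had 60 probe sets, and 14 genes had more than 1. Each gene was read at its brightest probe set. Of the 44, 36 are nuclear receptors and 7 are Ncoa or Ncor coregulators. Thrap3, the thyroid hormone receptor-associated protein 3, was taken in by the start of its symbol. All animals were rats and all samples were left ventricle. The labels do not say how diabetes was produced or how long it lasted, nor the strain, sex, age or feeding state, which limits what either group stands for. All 7 measured cardiomyocyte markers were bright enough to be tested. The number of arrays limits the precision of every value.

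Receptors for thyroid hormone, retinoic acid, vitamin D, sterols and fatty acids mostly bind DNA as pairs with a retinoid X receptor (RXR), whereas steroid receptors bind as pairs of themselves. Without ligand, several of the RXR-paired receptors hold corepressors such as Ncor1 on DNA. Ligand exchanges these for coactivators such as Ncoa1. In the heart, the peroxisome proliferator-activated receptors (PPARs) and the estrogen-related receptors are known for their control of fat burning and mitochondrial genes, and the thyroid hormone receptors for their control of myosin and calcium-handling genes.

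None of the 30 members that were bright enough to test passed the threshold between diabetic and normal ventricles, in either direction. The test was limma's moderated test on log2(signal + 16), with a Benjamini-Hochberg adjusted p under 0.05 over 9519 probe sets. In the same fit 2.88% of all tested probe sets passed, 1.5% risen and 1.38% fallen. At an unadjusted p under 0.05, 6 of the 30 members (20%) differed, 3 higher in the diabetic arrays (Thrb, Nr2f2 and Pparg) and 3 lower (Nr2f6, Ncoa4 and Rarb). The same criterion was met by 19.9% of all tested probe sets, 9.54% higher and 10.3% lower, so the share among the members lay at the background. The diabetic and normal values did not overlap for 4 of the 30 members (13.3%), Thrb and Nr2f2 above and Nr2f6 and Ncoa4 below, against 25.7% of all tested probe sets (12.1% above and 13.6% below).

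The differences among the members were small and ran in both directions. Their log2 differences, diabetic minus normal, ran from -0.63 to 0.68, with 16 above and 14 below 0. The median was 0.03, beside -0.01 over all tested probe sets, and the median size without sign was 0.22, beside 0.20. No member differed by more than 1 on the log2 scale, that is 2-fold, as 2.26% of all tested probe sets did. The 95% interval of the difference lay wholly within a 2-fold change either way for 23 of the 30 members (76.7%, beside 87.1% of all tested probe sets). For the other 7 the data left room for a 2-fold change in at least 1 direction. The remaining 14 of the 44 genes lay below the filter on dim probe sets and are described by their signals further on. On simulated data of 9519 probe sets, a small part of which held planted differences, the same fit was tried. It recovered 12% of planted differences of 0.5, 84% of those of 1 and 100% of those of 2 on the log2 scale. In that simulation a difference of 0.5 was thus mostly missed. The noise came from limma's moderated SDs of all tested probe sets, shuffled among them. The median within-group SD of all tested probe sets on the log2 scale was 0.21, beside 0.25 for the tested members. The simulation made 155 calls and the data 274, so the shares may not carry over to the data. The shares for the members themselves were not simulated.

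**Figure D1:**
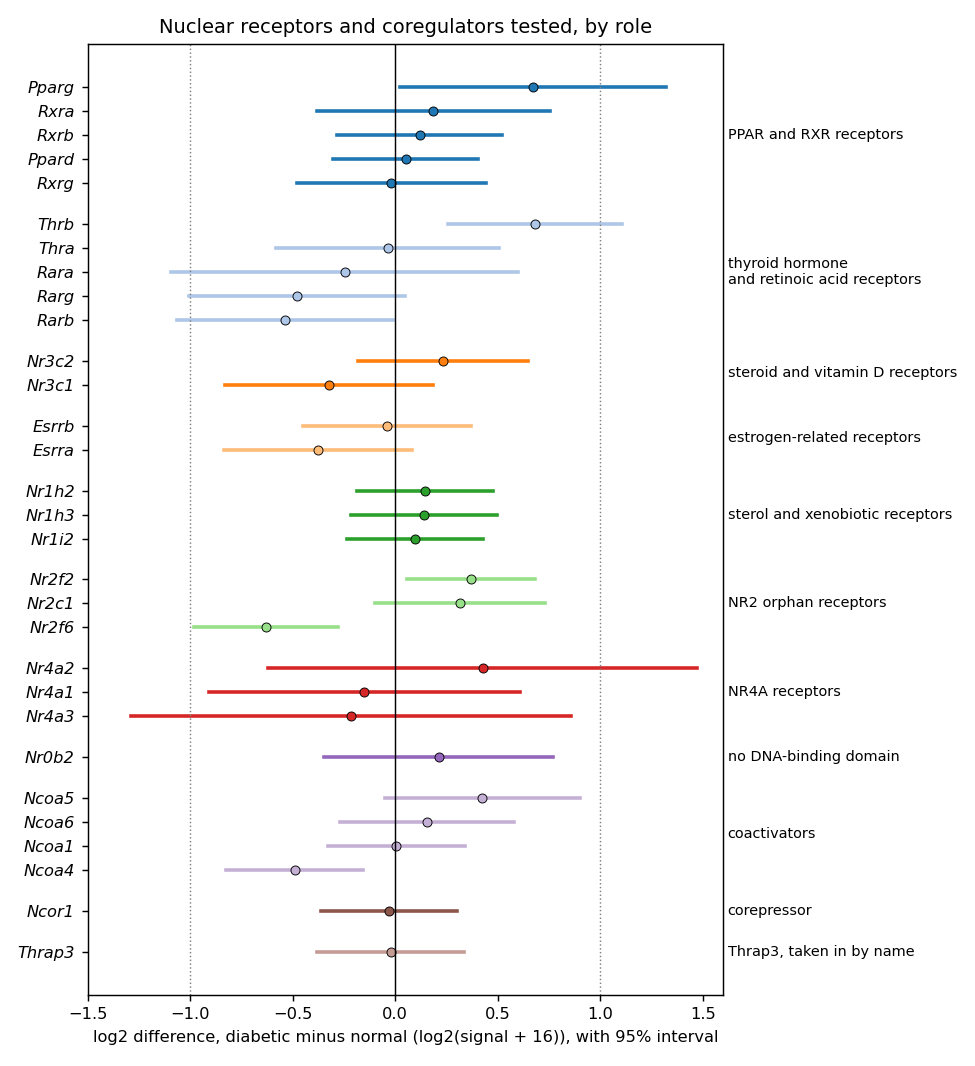
Log2 difference (diabetic minus normal, on the log2(signal + 16) scale) of the 30 tested members, grouped by role, with dots for the estimate and bars for the 95% interval from limma (n = 3 arrays per group); dotted lines mark a 2-fold change. The estimates run from -0.63 for Nr2f6 to 0.68 for Thrb, and none passed the adjusted threshold.

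The lowest p among the members belonged to Nr2f6, an orphan receptor of the COUP-TF family that mostly represses transcription. Its signal was 380.5, 439.5 and 511 in normal 1, 2 and 3, and 287, 289.9 and 260.5 in diabetic 1, 2 and 3. Every diabetic heart lay below every normal heart. The means were 444 ± 65.3 and 279 ± 16.3 (SD, n = 3 per group), a log2 difference of -0.63 ± 0.16 (SE, 95% interval -0.98 to -0.28, limma adjusted p = 0.0691). A further tested probe set, with 176.5, 102 and 222 in normal and 121, 121 and 96.5 in diabetic arrays, differed by -0.45 with overlap between the groups. Nr2f6 passed only with a stricter filter that kept 18 members, at an adjusted p of 0.033 (0.033 to 0.234 over all alternatives in which it was tested).

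Thrb, the thyroid hormone receptor beta, differed in the other direction. Its brightest probe set gave 189, 172 and 140.4 in normal and 235, 351 and 254 in diabetic arrays. All diabetic values were above all normal values, with the highest in diabetic 2. The means were 167 ± 24.6 and 280.0 ± 61.8, a 1.61-fold difference on the log2(signal + 16) scale (log2 0.68 ± 0.19, 95% interval 0.26 to 1.11, adjusted p = 0.09). The other Thrb probe set gave 145, 196 and 191 against 244, 343 and 212.5, again without overlap (log2 0.53, adjusted p = 0.189). Thra, the alpha receptor and the other gene of this pair, had overlapping groups. It was at 403, 415 and 446 in normal and 587, 419 and 278.5 in diabetic arrays (log2 -0.04 ± 0.24, interval -0.58 to 0.51, adjusted p = 0.955). At this probe set the diabetic hearts thus held both the highest and the lowest Thra value, and its sign turned to 0.23 without diabetic 3. The other tested Thra probe set ordered the hearts differently. It gave 213.5, 181 and 314 in normal and 147, 188 and 295 in diabetic arrays (log2 -0.17 ± 0.27, adjusted p = 0.781). There diabetic 1 was the lowest heart and normal 3 the highest. Whether the receptors differ from each other in their response was not tested.

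Ncoa4, a coactivator first described with the androgen receptor and also the cargo receptor that delivers ferritin to lysosomes, was lower in each diabetic heart. Its signal was 1785, 2144 and 1766 in normal arrays and 1351, 1423 and 1257 in diabetic arrays. The means were 1898 ± 213 and 1344 ± 83.2, a log2 difference of -0.49 ± 0.15 (interval -0.82 to -0.16, adjusted p = 0.112). The groups did not overlap. Nr2f2, COUP-TFII, a receptor known for its part in atrial and venous identity, gave 151, 172 and 169 in normal and 217, 226 and 205 in diabetic arrays. It had the tightest replicates of these genes and no overlap, at a log2 difference of 0.37 ± 0.14 (interval 0.06 to 0.68, adjusted p = 0.183). Its dimmer probe set, below the filter, was at 19.9, 89.0 and 116 in normal and 105, 154 and 115 in diabetic arrays.

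**Figure D2:**
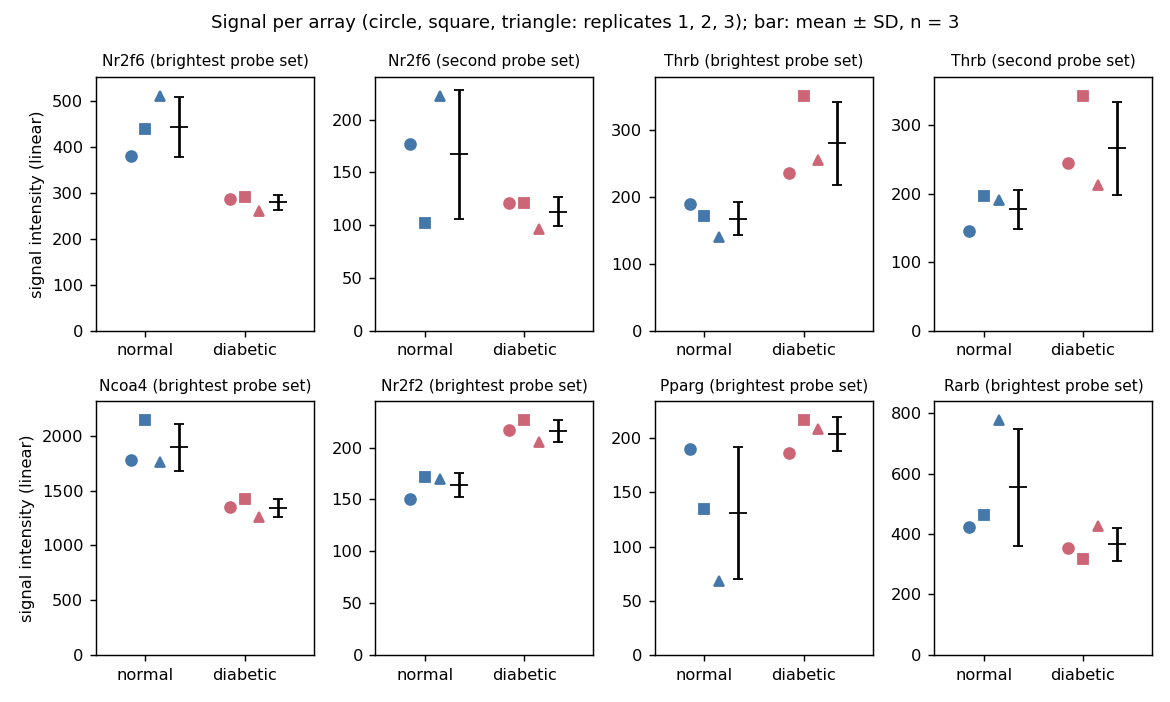
Linear signal intensity in each of the 3 normal and 3 diabetic arrays for the 6 members with an unadjusted p under 0.05, with a second panel for Nr2f6 and Thrb, which had 2 tested probe sets; black bars give the mean ± SD. At the brightest probe set the groups separate for Nr2f6, Thrb, Ncoa4 and Nr2f2 and overlap for Pparg and Rarb, where normal 3 stands at 68.0 and 777.

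The 3 members with the lowest p are also shown by their promoter, because nuclear receptors can act on the genes of their own family. The sequences are the 250 bases before each gene's start in RefSeq (build GRCr8), on the gene's own strand. Capitals mark the hexamer that many of these receptors bind, AGGTCA or its reverse complement TGACCT.
Nr2f6 (chr16:18087450-18087699, minus strand): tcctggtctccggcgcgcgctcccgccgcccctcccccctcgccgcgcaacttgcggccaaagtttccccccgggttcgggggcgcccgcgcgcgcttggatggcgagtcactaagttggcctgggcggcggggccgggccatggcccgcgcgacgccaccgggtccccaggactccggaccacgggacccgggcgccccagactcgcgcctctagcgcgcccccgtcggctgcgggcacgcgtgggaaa
Thrb (chr15:10461447-10461696, minus strand): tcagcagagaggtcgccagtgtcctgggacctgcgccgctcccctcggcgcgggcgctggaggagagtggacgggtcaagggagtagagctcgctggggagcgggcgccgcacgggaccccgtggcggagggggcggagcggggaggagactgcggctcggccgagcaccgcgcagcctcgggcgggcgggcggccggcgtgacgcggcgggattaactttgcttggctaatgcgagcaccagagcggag
Ncoa4 (chr16:7401541-7401790, plus strand): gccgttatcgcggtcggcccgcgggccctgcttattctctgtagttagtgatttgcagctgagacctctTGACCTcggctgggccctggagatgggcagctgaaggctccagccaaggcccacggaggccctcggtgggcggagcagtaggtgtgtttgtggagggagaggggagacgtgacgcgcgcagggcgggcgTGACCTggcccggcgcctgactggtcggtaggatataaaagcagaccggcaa
The Ncoa4 window held the hexamer at 2 places, 181 and 52 bases before the start, while the Nr2f6 and Thrb windows held none. Of the members, 37 genes with 41 starts were in the RefSeq table, and 4 of these starts (9.76%) held it, compared with 14.1% of all 33469 starts. A match is a description of the letters in this window and not a measured binding site.

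Among the receptors for fatty acids, the PPARs, only Pparg had a low unadjusted p. Pparg, the adipocyte-type PPAR, was at 189.9, 135 and 68.0 in normal and 186, 216 and 208 in diabetic arrays. The low value of normal 3 set much of the difference of 0.67 ± 0.29 (interval 0.02 to 1.32, adjusted p = 0.235), which was 0.32 without that array. Without normal 1 the difference was 0.96. Of 3 adipocyte markers on the array, Lep (6.7 to 55.5 over the 6 arrays) and Plin1 (26.2 to 76.2) lay below the filter, and Fabp4, which endothelial cells also make, differed by 0.06 on the log2 scale. The part of adipocytes in the Pparg difference was not tested. Ppard, the widely expressed PPAR, was at 702, 639 and 548 in normal and 661, 709 and 585 in diabetic arrays, with groups that overlapped fully (log2 0.05 ± 0.16, interval -0.30 to 0.41, adjusted p = 0.898). Ppara, the PPAR best known in cardiac fat oxidation, was too dim to test. Its signal was 114, 45.1 and 153 in normal and 100.2, 14.2 and 74.0 in diabetic arrays, so the spread within each group was larger than the distance between their means of 104 ± 54.6 and 62.8 ± 44.1.

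The RXRs, the shared partners, did not differ beyond their spread. Rxrg, the form found mainly in muscle, was at 2509, 2402 and 1843 in normal and 2513, 1692 and 2513 in diabetic arrays. The difference was -0.02 ± 0.20 (interval -0.48 to 0.44, adjusted p = 0.976), with a low heart in each group. Rxra gave 268, 182 and 133 in normal and 201, 277 and 178 in diabetic arrays (log2 0.19 ± 0.25, adjusted p = 0.74), and Rxrb differed by 0.12 ± 0.18. All 3 RXR intervals lay within a 2-fold change.

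All 3 retinoic acid receptors had negative differences, without passing. Rarb, itself a classic retinoic acid target gene, was at 424, 462 and 777 in normal and 355, 317 and 426 in diabetic arrays. Normal 3 was far above the rest, and the difference of -0.54 ± 0.23 (adjusted p = 0.243) shrank to -0.27 without it. Without normal 1 the difference was -0.70. Rarg was at 223, 178 and 232 in normal and 209.7, 142 and 103 in diabetic arrays (log2 -0.48 ± 0.23, adjusted p = 0.295). Its difference was -0.26 without diabetic 3 and -0.72 without diabetic 1. Rara was at 119, 159 and 139 in normal and 164, 176 and 47.8 in diabetic arrays. Its difference of -0.25 ± 0.37 (adjusted p = 0.774) rested on diabetic 3 and turned to 0.27 without it.

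Retinoic acid is made by retinaldehyde dehydrogenases, and of 4 tested genes of retinoid supply and clearance 1 fell, Aldh1a1. This enzyme was at 1186, 1435 and 1381 in normal and 530.4, 290.0 and 374 in diabetic arrays (log2 -1.74 ± 0.22, adjusted p = 0.00618), and it passed with each of the 6 arrays left out. The other enzymes tested were Aldh1a2 (log2 -0.18), Rdh10 (-0.12) and Dhrs3 (0.35), none of which passed. Cyp26b1, which clears retinoic acid, lay below the filter and was not tested. Its groups did not overlap, at 54.8, 21.8 and 9.4 in normal and 125.6, 123 and 98.2 in diabetic arrays. The groups of Cyp26a1, the related clearing enzyme and also below the filter, overlapped. It ran from 15.1 to 47.9 in normal and from 12.2 to 45.7 in diabetic arrays. The other dim genes of this list, Rbp4, Crabp1, Crabp2, Stra6 and Lrat, overlapped too. The share without overlap over all dim probe sets is not given, so the values of Cyp26b1 are not read as a change in clearance. Of 3 tested retinoic acid responsive genes, which include Rarb and Dhrs3 given above, none passed. Cyp26b1 is on that list too but was not tested.

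The steroid receptors of the heart, for glucocorticoids and mineralocorticoids, overlapped between the groups. Nr3c1, the glucocorticoid receptor, was at 344, 462 and 486 in normal and 377, 243 and 418 in diabetic arrays (log2 -0.32 ± 0.22, interval -0.83 to 0.18, adjusted p = 0.47). Diabetic 2 was the lowest, and the difference was -0.10 without it and -0.47 without diabetic 3. Nr3c2, the mineralocorticoid receptor, was at 527, 472 and 551 in normal and 786, 553 and 519 in diabetic arrays, with diabetic 1 above the rest. Its log2 difference was 0.23 ± 0.18 (adjusted p = 0.528), or 0.05 without diabetic 1 and 0.35 without diabetic 3. Of 2 tested genes of steroid and sterol supply neither passed, Hsd11b1, which regenerates active glucocorticoid inside cells, differing by 0.01 ± 0.17 and Cyp27a1, which makes oxysterols, by 0.56 ± 0.17 (adjusted p = 0.117) without overlap between the groups. Cyp7b1, which clears oxysterols, lay below the filter, at 54.5, 42.9 and 36.1 in normal and 20.6, 17.3 and 7.1 in diabetic arrays. None of the 6 thyroid hormone supply genes on the array was bright enough to test. The estrogen receptors Esr1 and Esr2 and the vitamin D receptor Vdr lay below the filter.

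Esrra, the estrogen-related receptor alpha and a regulator of mitochondrial genes, was at 918, 859 and 1018 in normal and 541, 935 and 712 in diabetic arrays. The groups overlapped because diabetic 2 lay among the normal values. The difference was -0.38 ± 0.20 (interval -0.84 to 0.08, adjusted p = 0.343), or -0.18 without diabetic 1 and -0.57 without diabetic 2. Esrrb ran from 408 to 537 in normal and from 358 to 499 in diabetic arrays (log2 -0.04 ± 0.18). Of 13 tested genes known to respond to estrogen-related receptors, none passed, 11 had negative differences and the median was -0.15, beside -0.01 over all tested probe sets.

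The oxysterol receptors of the liver X type had overlapping groups. Nr1h2 was at 599, 604 and 557 in normal and 627, 591 and 738 in diabetic arrays (log2 0.14 ± 0.15, interval -0.19 to 0.48). Nr1h3 was at 175, 156 and 128 in normal and 176, 156 and 175 in diabetic arrays (log2 0.14 ± 0.16, interval -0.21 to 0.50). The adjusted p was 0.641 and 0.677. Of 6 tested liver X receptor responsive genes none passed, Srebf1, which drives fatty acid synthesis, being nearest at 0.46 ± 0.15 (adjusted p = 0.136). Nr1i2, a xenobiotic receptor, differed by 0.10 ± 0.15. Nr0b2, a receptor that lacks a DNA-binding domain and represses others, ran from 251 to 545 in normal and from 396 to 447 in diabetic arrays (log2 0.21 ± 0.25).

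Of the other orphan receptors, Nr2c1, the testicular receptor 2, was at 123, 162 and 151 in normal and 195, 218 and 145 in diabetic arrays (log2 0.32 ± 0.18, adjusted p = 0.381). The NR4A receptors, which are induced within minutes to hours of a stimulus and act without a ligand, varied far more between hearts than between groups. Nr4a1 was at 1060.2, 432 and 747 in normal and 907, 455 and 603 in diabetic arrays. Nr4a2 was at 230.0, 74.7 and 118 in normal and 376, 135 and 106 in diabetic arrays. Nr4a3 was at 291, 109 and 298 in normal and 348, 86.9 and 189 in diabetic arrays. Within a group the highest heart exceeded the lowest by 2.45-fold in normal and 1.99-fold in diabetic arrays for Nr4a1, and by 3.08-fold and 3.55-fold for Nr4a2. At these brightest probe sets diabetic 1 was the highest diabetic heart for all 3 genes, and normal 2 the lowest normal heart. The within-group SD on the log2 scale was 0.57, 0.82 and 0.84 for Nr4a1, Nr4a2 and Nr4a3, beside a median of 0.25 over the tested members. The group differences were -0.15 ± 0.34, 0.43 ± 0.46 and -0.22 ± 0.47 (adjusted p = 0.854, 0.666 and 0.85), with intervals for Nr4a2 and Nr4a3 that passed a 2-fold change. The dimmer Nr4a3 probe set, below the filter, differed by 0.24, opposite in sign to the brighter one. It was at 301.5, 47.9 and 18.4 in normal and 451, 3.4 and 111 in diabetic arrays, with normal 3 as the lowest normal heart.

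**Figure D3:**
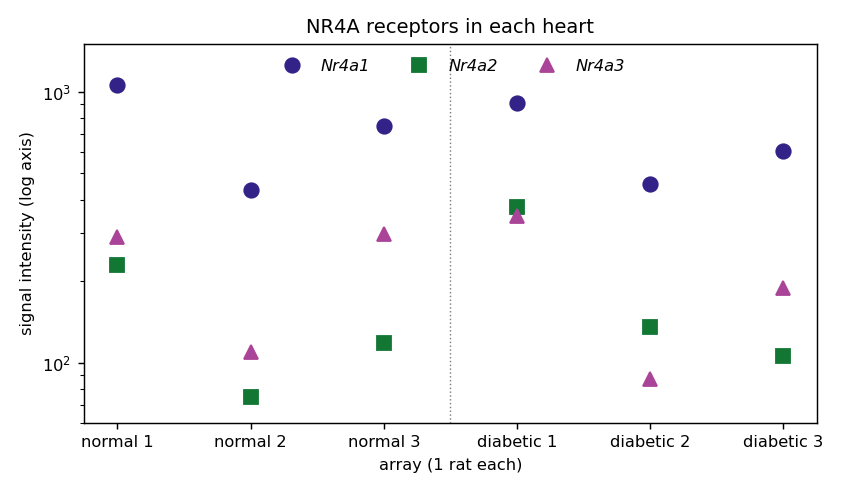
Signal intensity (log axis) of Nr4a1, Nr4a2 and Nr4a3 at their brightest probe sets in each of the 6 hearts, normal left and diabetic right of the dotted line. For Nr4a1 the values run from 432 to 1060.2 among normal hearts and from 455 to 907 among diabetic hearts, so the spread between hearts covers the difference between groups.

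None of the tested coactivators, nor the corepressor Ncor1, passed. Ncoa1, the steroid receptor coactivator 1, was at 433, 472 and 539 in normal and 499, 443 and 504 in diabetic arrays, with a log2 difference of 0.01 ± 0.15 (interval -0.33 to 0.34). Ncor1 was at 708, 689 and 695 in normal and 650.5, 782 and 623 in diabetic arrays (log2 -0.03 ± 0.15, interval -0.36 to 0.30), and its other tested probe set differed by -0.13. Both intervals exclude a change of 2-fold. Ncoa5 was at 165, 177 and 239.6 in normal and 208, 254 and 341 in diabetic arrays (log2 0.43 ± 0.21, adjusted p = 0.305). Its difference was 0.25 without diabetic 3 and 0.58 without diabetic 1. Ncoa6 differed by 0.15 ± 0.19 and Thrap3 by -0.02 ± 0.16. Of 17 further coregulators from a list outside the symbol rule, none passed, with 9 differences above and 8 below 0 and a median of 0.04. Nearest were Pnrc1, a proline-rich coactivator, at 0.69 ± 0.17 (adjusted p = 0.0713), and Hdac2, a histone deacetylase, at -0.48 ± 0.15 (adjusted p = 0.128). Ppargc1a, the coactivator PGC-1 alpha, differed by 0.13 (adjusted p = 0.715). Nr1d1 and Nr1d2, the clock receptors, differed by 0.62 ± 0.48 and 0.24 ± 0.36.

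The 14 members below the filter had mean signals of 10.02 to 93.3, where the filter lay at 113. They were Ppara, Rorb, Esr1, Esr2, Vdr, Nr1h4, Nr1i3, Nr2c2, Nr2f1, Nr5a1, Nr5a2, Nr0b1, Ncoa2 and Ncoa3. They included the coactivators Ncoa2, at 58.2, 25.9 and 17.8 in normal and 80.3, 17.2 and 69.5 in diabetic arrays, and Ncoa3, at 68.4 to 117 and 80.5 to 112. Without detection calls a low signal does not show that a gene is silent, and no difference was tested for these genes at the main setting. Nr2f1, COUP-TFI, was the only 1 of the 14 whose groups did not overlap, at 37.5, 26.9 and 34.6 in normal and 21, 5.4 and 13 in diabetic arrays, all near the low end of the signals. Of all tested probe sets 25.7% did not overlap, and the share over the dim probe sets is not given. The count of 1 in 14 is thus not read as a result about the members.

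**Figure D4:**
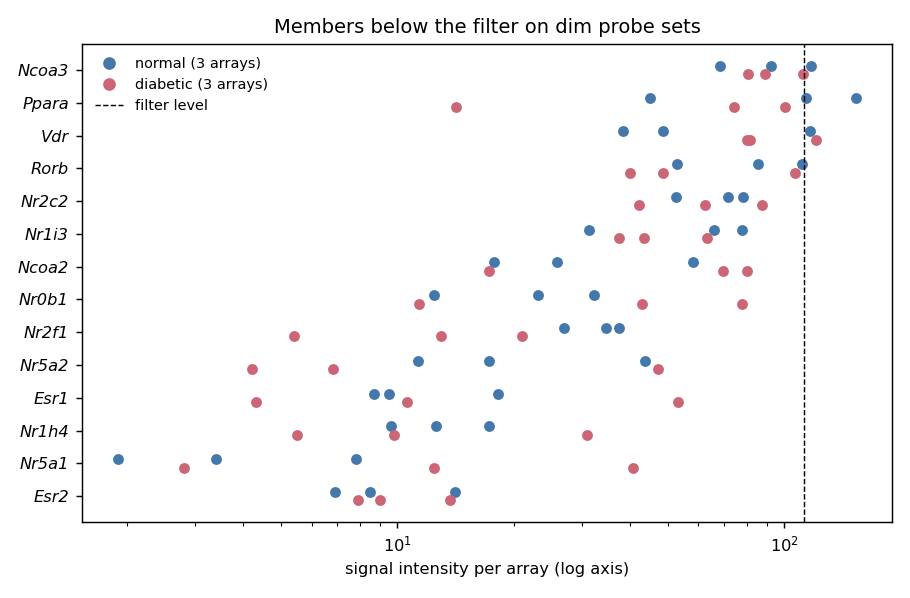
Signal intensity (log axis) in the 3 normal and 3 diabetic arrays for the 14 members below the filter, whose level of 113 is the dashed line. Normal and diabetic values overlap for 13 of the 14 genes, and for Nr2f1 the diabetic values of 5.4 to 21 lie below the normal values of 26.9 to 37.5. The share without overlap over all dim probe sets is not given.

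Where a gene had several probe sets they mostly pointed the same way. In 12 of the 14 such genes all probe sets had differences of 1 sign, the exceptions being Ncoa6 and Nr4a3, each with a second probe set below the filter. Many of these signs came from probe sets below the filter, which were not tested. The 4 genes with more than 1 tested probe set, Ncor1, Nr2f6, Thra and Thrb, each had 1 sign throughout. For Nr2f6 this includes probe sets below the filter that differed by only -0.11 and -0.09, with overlap between the groups.

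Several genes known to respond to these receptors passed the threshold. Of all tested probe sets 1.5% rose and 1.38% fell. Over these, 4565 of 9519 differences were above 0, with a median of -0.01. The lists as drawn up share genes. Ucp3 is on the PPAR and thyroid hormone lists, Klf9 on the thyroid hormone and glucocorticoid lists, and Acadm on the PPAR and estrogen-related receptor lists. Of 22 tested PPAR responsive genes 4 rose and none fell (median 0.50, with 21 of 22 differences above 0). Normal 3 stood apart in this list. It was the lowest normal heart for 20 of the 22 genes, with Angptl4, a lipase inhibitor, at 927, 1083 and 72.7 in normal 1, 2 and 3, and Pdk4, which holds back glucose oxidation, at 8462, 9237 and 1642. Without normal 3 the median was 0.38, 18 of 22 differences were above 0 and 2 genes rose, and with any 1 array left out 1 to 3 genes rose, 1 of them without diabetic 3. The genes that rose with all arrays were the thioesterases Acot1 (log2 3.34) and Acot2 (1.91) and the oxidation enzymes Decr1 (1.20) and Hadha (0.85). Acot1 passed with each array left out. Acot2 lost its call without normal 2, diabetic 1 or diabetic 3, at an adjusted p of up to 0.0618. Decr1 passed only without normal 1 or diabetic 1 and Hadha only without normal 2 or diabetic 1, with adjusted p of up to 0.0779 and 0.099 otherwise. Of 11 tested thyroid hormone responsive genes, Myh7, the slow myosin heavy chain, rose (log2 1.49), while Myh6, the fast form (-1.55), and the glucose transporter Slc2a4 (-1.04) fell. Myh7 passed with each array left out. Myh6 passed only without diabetic 2 or diabetic 3 and Slc2a4 only without diabetic 2, with adjusted p of up to 0.0769 and 0.0956 otherwise. Of 13 tested glucocorticoid responsive genes 1 rose, Glul, glutamine synthetase (log2 0.96 ± 0.18, adjusted p = 0.0281), which with 1 array left out passed only without normal 1 and reached 0.0971 without diabetic 2. The classic glucocorticoid targets Fkbp5 and Tsc22d3 differed by 1.33 ± 0.36 and 0.74 ± 0.20 (adjusted p = 0.0865 and 0.0853). Other classic targets lay nearer 0 or on its other side, Per1 at 0.15, Dusp1 at -0.27 and Sgk1 at -0.31. Of the 13 differences 9 were above and 4 below 0, with a median of 0.23, and with 1 array left out the median ran from 0.03 (without diabetic 1) to 0.38 (without diabetic 3). These lists were chosen with earlier results of these data known, so they are not independent evidence of their direction. The difference between responsive genes and receptors was not tested.

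Markers of other cell types were followed alongside. Of 9 tested fibroblast markers 4 fell (Col1a1, Col1a2, Col3a1 and Lum), with a median of -0.36, and Col1a1 lost its call without normal 1, normal 3 or diabetic 3 (adjusted p up to 0.0704). The summed signal of all 10 was 36518 to 41205 in normal and 24446 to 25173 in diabetic arrays. Of 7 tested endothelial markers 1 fell, Tie1 (log2 -0.94), which with 1 array left out passed only without normal 1 or diabetic 1 (up to 0.0811 otherwise), with sums of 7409 to 7931 and 6848 to 7787. Of 6 tested smooth muscle and pericyte markers, 4 tested macrophage markers and 1 tested lymphocyte marker, none passed. Of the smooth muscle and pericyte differences 5 were below and 1 above 0. The sums over all 7 of these markers on the array did not overlap, at 3828 to 4841 in normal and 3088 to 3729 in diabetic arrays. All 4 macrophage differences were above 0, with sums that overlapped (2921 to 4241 and 3487 to 5654). Of 5 atrial markers Nppa rose, and it passed with each array left out (log2 2.64 to 2.93). Of the 5 atrial differences 4 were above and 1 below 0, with a median of 0.43. The atrial sums, which include Nppa, did not overlap, at 4187 to 5468 in normal and 20853 to 30848 in diabetic arrays. The part of Nppa in these sums was not separated. Of 7 cardiomyocyte markers Myh6 fell. All 7 cardiomyocyte differences were below 0 (median -0.155), with sums that overlapped between the groups. No nerve or Schwann cell marker and 2 skeletal muscle markers were bright enough to test, and neither of those 2 passed. No marker was listed at 0. Since nuclear receptors are made by several of these cell types, the part of cell makeup in the differences of Nr2f6, Thrb, Ncoa4 and Nr2f2 was not tested, and in whole tissue fewer cells of a type and less RNA per cell cannot be told apart.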

How the data were processed

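The authors deposited linear signal intensities, from 0.2 to 72999.3, for the probe sets of each array. For their software and normalization, the sources used here say nothing. All 6 arrays shared a trimmed mean (2% off each end) of 500.2, which means that a common scaling was already in the values, and no further one was applied. After 57 control probe sets were left out, 15866 remained, of which 12783 had 1 gene in the platform annotation, 312 several and 2771 none. Names were updated by gene number through a RefSeq table (GRCr8), which matched 12748 and changed no member's symbol.

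Probe sets with a mean log2(signal + 16) above the 40th percentile were tested (9519), and 6347 were left out. The fit used limma 3.58.1 (R 4.3.3), with group as the only term and a two-sided test, with Benjamini-Hochberg adjustment over all tested probe sets. A fold change on the log2(signal + 16) scale understates the change of dim genes. An exact permutation of 3 and 3 hearts reaches p = 0.1 at the lowest, and p-values here rest on limma's model. The labels number the hearts but say nothing of litters or pooling, so p-values measure only the spread between these samples.

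The members, lists and roles were chosen with earlier results of these data known. Values in every sample are given for the 15 tested members with the lowest p and for a fixed panel, and up to 4 genes per list are named, with list genes beyond these chosen after their values were seen. On simulated data the fit made 155 calls, of which 7 were false. Alternatives tried were other pseudocounts (1 and 64), scalings, filters, priors, weights per array, a replicate block, each array left out, and gene means over probe sets. A filter on the mean of the linear signals, and the pathway lists with each array left out, were chosen after seeing the data. Plots came from matplotlib 3.10.9 (Python 3.11.15).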

Additional observations from a re-analysis of the deposited data

How the results depend on the processing

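The absence of a called member held under every alternative but 1. With the filter at the 60th percentile 18 members were tested and 1 fell, Nr2f6 (adjusted p = 0.033, from 0.033 to 0.234 over all its alternatives). That filter left out Thrb, Nr2f2 and Pparg, and the gene means over probe sets left out Nr2f6 and Nr2f2. These members could not be called there. Over all probe sets the number of calls was 18 with no filter, 437 with the filter at the 60th percentile and 527 with an intensity trend, and it ran from 100 to 202 with each array left out, against 274. The count of members without overlap was 2 with the 60th percentile filter (18 members tested) and 2 with gene means over probe sets (20 members tested). It ran from 5 to 9 with each array left out (30 members tested), where fewer values can overlap. The share of all probe sets without overlap is not given for these settings, so these counts are not read as a result about the members. Quantile and median scaling moved the median difference by less than 0.1 on the log2 scale and turned no sign. The deviations of same-numbered hearts from their group means correlated at 0.066, 0.014 and 0.016 across probe sets, and not every heart correlated best with its own number. Such correlations over all probe sets cannot tell whether same-numbered hearts were handled together. Some quickly responding genes, given below, were high in both hearts numbered 1. With the replicate number as a block 183 probe sets were called and no member. Of 436 recomputed differences over 24 members, 415 kept their sign and side of the threshold, 1 passed it and 20 turned sign, all 20 with 1 array left out. They belonged to 10 members, none of which had passed. Their ranges were -0.084 to 0.81 for Nr4a2, -0.043 to 0.13 for Ppard, -0.038 to 0.43 for Rxra, -0.16 to 0.17 for Rxrg, -0.29 to 0.23 for Thra, -0.53 to 0.27 for Rara, -0.49 to 0.14 for Nr4a1, -0.66 to 0.25 for Nr4a3, -0.065 to 0.087 for Ncoa1 and -0.13 to 0.031 for Ncor1. The cause was not tested.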

Other observations

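Among 5 other genes that respond quickly to a stimulus, 3 had their highest signals in normal 1 and diabetic 1 by a wide margin and 2 did not. These genes were chosen after their values were seen. Fos, a subunit of the transcription factor AP-1, was at 569 in normal 1 and 681 in diabetic 1, and between 63.3 and 90.9 in the other 4 hearts. Junb, its partner, was at 801 in normal 1 and 1410.0 in diabetic 1, against 329 to 523 elsewhere. Atf3, a stress-induced factor, was at 185 in normal 1 and 264 in diabetic 1, against 19.4 to 65.7 elsewhere. Egr1 was at 1291 in normal 1, but its 797 in diabetic 1 was close to the 764 of normal 2. Fosb was likewise at 203.5 in normal 1, 114 in diabetic 1 and 92.9 in normal 2. Nr4a2 was also highest in these hearts, with 230.0 in normal 1, 376 in diabetic 1 and 74.7 to 135 in the rest. At its brightest probe set Nr4a3 was as high in normal 3 (298) as in normal 1 (291). The dimmer Nr4a3 probe set, below the filter, was highest in diabetic 1 (451) and normal 1 (301.5), against 3.4 to 111 elsewhere. The labels give no time or manner of tissue collection, and the part of these in the values was not tested.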
